A study of Homo sapiens with 12 samples.

Results

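The eukaryotic translation initiation factor (EIF) genes were followed across 12 poly(A)+ RNA libraries of HEK293T cells. A gene belonged to the set if it is protein-coding in GENCODE release 44 and its symbol starts with EIF and a digit from 1 to 6, and the eIF2 kinases (EIF2AK) were left out. By this rule 52 genes qualified, of which 50 had a row among the 63541 gene IDs of the table. EIF5A and EIF3K, which had no row, were not analysed here. Of the 50 genes, 49 passed the filter on low counts and were tested, and the exception was EIF1AY.

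HEK293T is a human embryonic kidney line, labelled here as epithelial. Cells of this single line received 12.5 nM siRNA and were collected 48 h after transfection. The 4 groups were a scramble siRNA and 3 siRNAs against the short noncoding RNA snaR-A (si-snaR-A#1, #2 and #3, called siRNA #1, #2 and #3 from here on), with 3 libraries each and no group left untransfected. snaR-A itself was not analysed here, so its depletion was not checked in these libraries. The study asked how depletion of snaR-A affects mRNA processing, and the comparisons below ask whether the initiation factor genes changed in level with it.

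Initiation factors bring the small ribosomal subunit and the initiator tRNA to the start codon of an mRNA. eIF4F, made of the cap-binding protein eIF4E, the helicase eIF4A and the scaffold eIF4G, recruits the mRNA, while eIF3 bridges it to the small subunit. eIF2 carries the initiator tRNA as a ternary complex with GTP and is recharged by the exchange factor eIF2B. eIF5 and eIF5B complete GTP hydrolysis and subunit joining, and the eIF4E-binding proteins hold back cap-dependent initiation by competing with eIF4G for eIF4E.

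Library totals ran from 120.4 M to 180.1 M estimated counts, with M for 1000000. Levels are given as CPM, the counts of a gene per 1000000 counts of its library after scaling by the TMM factors. Of the markers used for this line, VIM (462 to 768 CPM), NEFM (244 to 462 CPM) and LIN28B (127 to 245 CPM) were present in every library, and KRT8 was at 6.93 to 8.87 CPM, KRT18 at 27.9 to 34.9 CPM and PAX2 at 4.57 to 7.36 CPM. Among markers of other cell types, PTPRC, PECAM1 and ALB did not exceed 0.134 CPM, CD68 did not exceed 1.01 CPM and COL1A1 was between 13.04 and 27.0 CPM. In bulk RNA, fewer cells of a kind and less RNA per cell cannot be told apart. Libraries of a group did not scatter evenly over these genes. The third siRNA #1 library was the lowest of its group for 38 of the 49 tested genes, and the scramble library of replicate 1 for 32 of 49. The same count was not made over all genes, so this is not shown to be particular to these genes.

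Levels between genes were compared per length, as CPM divided by the kilobases of the canonical GENCODE transcript. With scramble siRNA, EIF4A1, which encodes the main eIF4A helicase, had the highest level at 565 ± 16.6 CPM per kb (SD, n = 3). Its paralog EIF4A2 followed at 357 ± 9.28 CPM per kb, EIF3E at 343 ± 18.7 and the helicase cofactor EIF4B at 322 ± 11.8, and EIF4A2 and EIF3E did not differ beyond their spread. The cap-binding protein gene EIF4E had 61.0 ± 2.12 CPM per kb. The genes for the 5 eIF2B subunits had between 8.30 and 27.5 CPM per kb. At the other end were EIF5A2 at 4.86 ± 0.443, EIF2S3B at 0.919 ± 0.0391 and EIF4E1B, a germline form of eIF4E, at 0.246 ± 0.0367 CPM per kb. EIF3F, with an unusually long canonical transcript of 6920 bases, stood at 25.0 ± 1.45 CPM per kb, and its place in the order depends on that length. The sum over the 49 genes was 13630 ± 322 CPM with scramble, 14120 ± 614 with siRNA #1, 14690 ± 73.4 with siRNA #2 and 14740 ± 174 with siRNA #3.

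**Figure D1:**
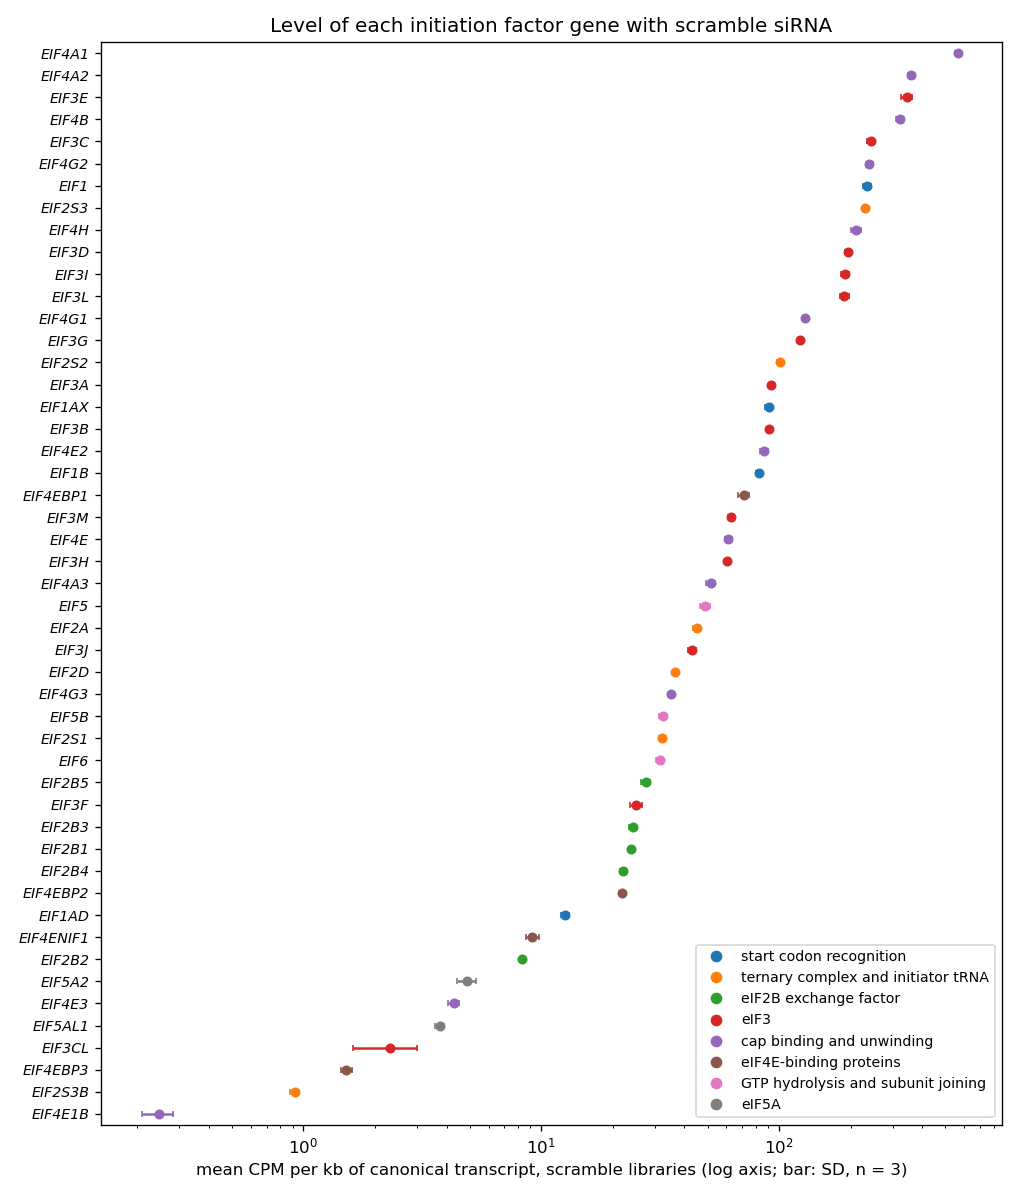
Mean CPM per kb of canonical transcript (log axis) in the 3 scramble libraries for each of the 49 tested initiation factor genes, with the SD as bars and the role group as colour. EIF4A1 stands at 565 CPM per kb and EIF4E1B at 0.246.

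Promoters of 41 of these genes were matched in RefSeq (GRCh38.p14), and short stretches are shown for genes whose levels are described below. Within the 250 bases before the start, the E-box letters CACGTG (a palindrome, the known site of MYC and related factors) were found for 10 of 41 genes (24.4%) against 7.73% of all 27305 promoters of any gene type. The CCAAT letters, searched on both strands, were found for 16 of 41 (39.0%) against 37.0%, and the TATA letters TATAAA, also on both strands, for 2 of 41 (4.88%) against 13%. The motifs were chosen after values of these data were seen, and a match of letters is not a bound site. The first group of sequences marks E-boxes in capitals, 5′ to 3′ on the strand of the gene, and the second marks the CCAAT letters of EIF4A1.
EIF4E, chr4:98929341-98929370, minus strand: ctacccatcggcCACGTGaccagtcctttt
EIF4E, chr4:98929188-98929217, minus strand: ggacatatccgtCACGTGgccagaagctgg
EIF4G1, chr3:184314450-184314479, plus strand: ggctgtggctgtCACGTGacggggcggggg
EIF4A3, chr17:80147232-80147261, minus strand: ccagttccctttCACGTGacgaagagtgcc
EIF5A2, chr3:170908807-170908836, minus strand: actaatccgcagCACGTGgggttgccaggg
EIF5A2, chr3:170908782-170908811, minus strand: cagggcgctcttCACGTGactgggcggagc
EIF1B, chr3:40309641-40309670, plus strand: gcgcgggacggtCACGTGggaggggccgcg
EIF4A1, chr17:7572616-7572644, plus strand: cgggccctccagCCAATgaggctgcgggg
EIF4A1, chr17:7572665-7572693, plus strand: cactcgagttatCCAATggtgcctgcggg
EIF4A1, chr17:7572751-7572779, plus strand: ggggcggccaaaCCAATgcgatggccggg
The E-boxes of EIF4E lay 225 and 72 bases before its start, and that of EIF4A3 121 bases before. Of the 10 genes with an E-box, EIF3F and EIF4G1 were called higher than scramble with siRNA #1 and EIF4E and EIF5A2 lower. With siRNA #2, EIF1B, EIF3F, EIF4B and EIF4H were higher and EIF4G1 and EIF5A2 lower. With siRNA #3, EIF1B, EIF2B3, EIF3F, EIF4B, EIF4E, EIF4G1 and EIF5A2 were higher and EIF4A3 lower. EIF4EBP3 was called with none. Of all 49 tested genes 23, 18 and 21 were called with siRNA #1, #2 and #3, and of all genes 45.2%, 25.8% and 29.4%. As given below, some of these E-box calls were lost in other settings. They were EIF4E and EIF5A2 with siRNA #1, EIF4G1 and EIF4H with siRNA #2, and EIF5A2 with siRNA #3. A part of the E-box in these changes was not tested.

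Each siRNA was then compared with scramble, with the threshold for a call set at 0.05 on the adjusted p (edgeR quasi-likelihood test, Benjamini-Hochberg over all 21999 genes tested). With siRNA #1, 23 of the 49 initiation factor genes were called, 12 higher and 11 lower, beside a background of 45.2% of all genes. Once the trend of each library with GC content and transcript length was removed, siRNA #1 had 21 higher and 6 lower genes, and all genes then had 5263 higher and 4846 lower. With siRNA #2, 18 were called, 13 higher and 5 lower, beside 25.8%. Without scramble replicate 1, 11 were called with siRNA #2, beside 19.9% of all genes in that fit. With siRNA #3, 21 were called, 16 higher and 5 lower, beside 29.4%. In the mean of the 3 siRNAs 16 were called (background 32.2%), of which 12 were higher (15.6% of all genes) and 4 lower (16.6%). With upper quartile scaling the split was 8 higher and 6 lower with siRNA #2, 13 and 7 with siRNA #3, and 9 and 8 in the mean. All genes then had 2439 higher and 3584 lower with siRNA #2, 2885 and 3874 with siRNA #3, and 3065 and 4522 in the mean. With TMM the splits of all genes were 3018 and 2655, 3619 and 2855, and 3442 and 3645. The median log2 fold changes of the 49 genes were 0.01, 0.06 and 0.08 with siRNA #1, #2 and #3, where those of all genes were -0.02, -0.03 and -0.03. Background shares here and below are over all 21999 genes tested, those at low levels included. In a fit kept to the 14538 genes at a mean of 1 CPM or more, larger shares were called. Of the 14538 genes, 9037 were called with siRNA #1, 5855 with siRNA #2, 6487 with siRNA #3 and 7041 in the mean. The background shares printed here and below are therefore lower than the shares called among genes at such levels. A count of initiation factor genes above its background share is thus not shown to exceed that of expressed genes.

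The 3 comparisons share the scramble libraries, so a gene called in all of them does not have 3 independent calls. By the sequences the study lists, the 3 siRNAs also overlap, and the sequence of siRNA #2 lies within that of siRNA #3. EIF4A1, EIF3B, EIF3C, EIF3F and EIF2A rose with all 3 siRNAs and no gene of the set fell with all 3, while 8.00% of all genes had such calls on the same side in all 3 comparisons. EIF4A1, EIF3B, EIF3C and EIF3F had all 9 siRNA libraries above all 3 scramble libraries (6.62% of all genes did), and none had all 9 below (5.50% of all genes). Of the 9 genes called in all 3 comparisons, the other 4 (EIF4G1, EIF2S2, EIF5B and EIF5A2) had calls on both sides, as 3.12% of all genes did. EIF4E was called on both sides in 2 comparisons, lower with siRNA #1 and higher with siRNA #3. A further 13 genes were called with no siRNA, among them EIF3A, EIF3G, EIF3I and EIF4G2, and this held for 40.2% of all genes.

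**Figure D2:**
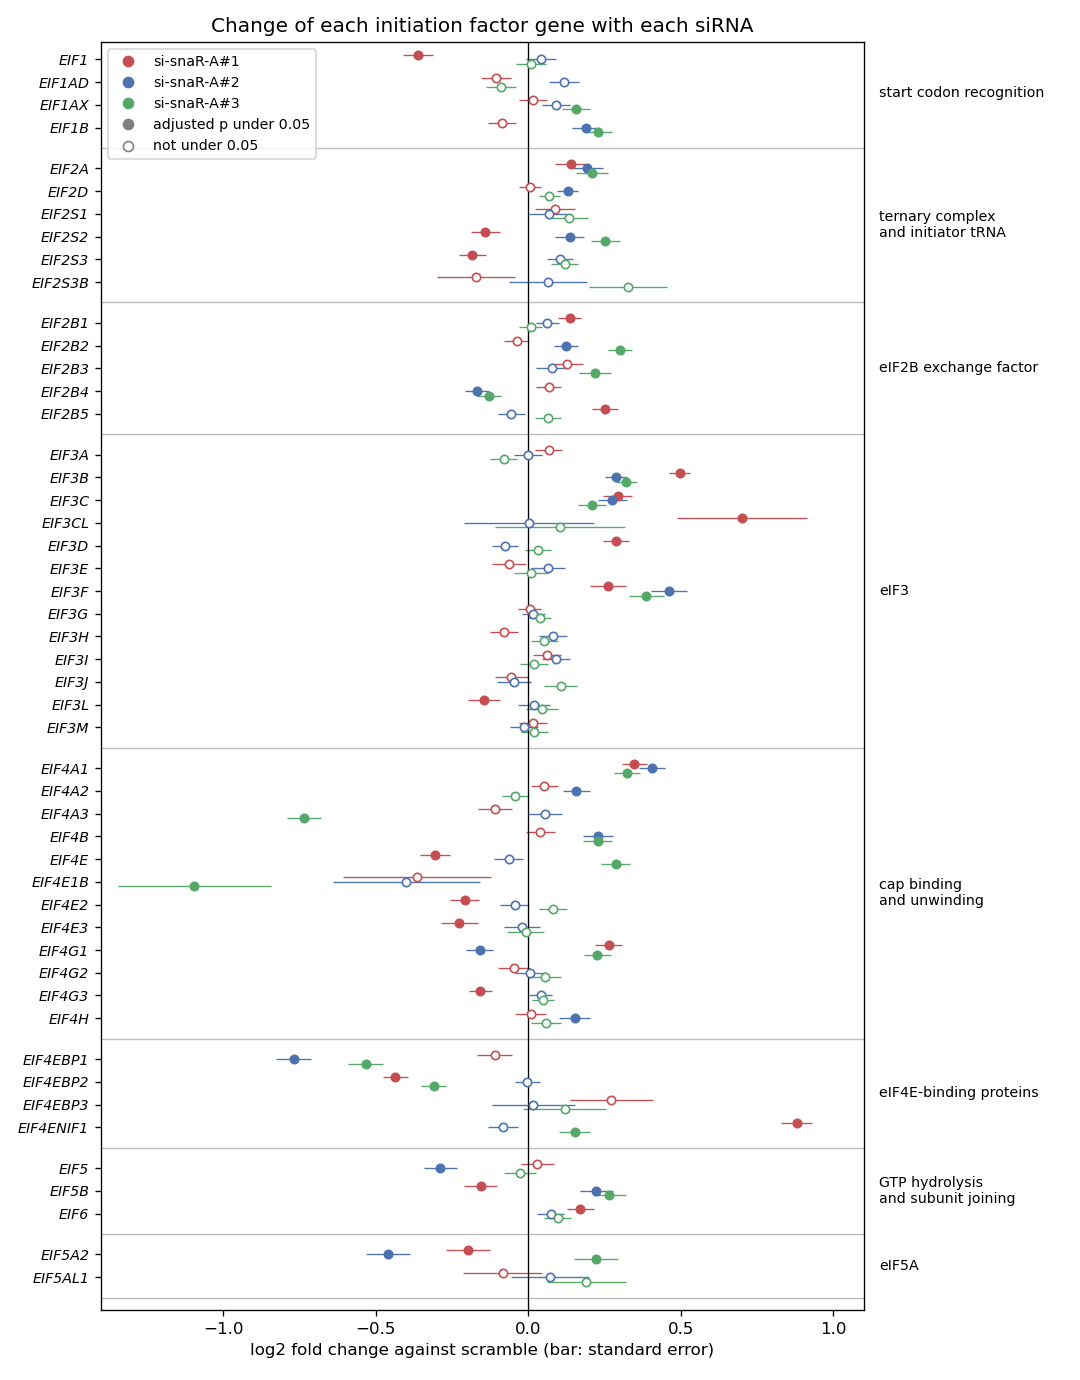
Log2 fold change against scramble of the 49 tested genes, ordered by role, for siRNA #1 (red), #2 (blue) and #3 (green), with the standard error as bars. Filled points were called at an adjusted p under 0.05, and EIF4A1 and EIF3B have 3 filled points right of 0 while EIF4G1 has filled points on both sides.

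EIF4A1 (chromosome 17, 7572824 to 7579006, plus strand, GRCh38), the RNA helicase that unwinds the 5′ end of mRNAs, rose by about the same amount with each siRNA. Its scramble libraries had 964, 995 and 1022 CPM. The siRNA #1 libraries had 1300.0, 1277 and 1216 CPM, the siRNA #2 libraries 1313, 1336 and 1298 CPM, and the siRNA #3 libraries 1202, 1241 and 1286 CPM. All 9 lay above scramble, and the log2 fold changes were 0.35 ± 0.042 (SE; 1.27-fold, adjusted p = 2.07e-05), 0.41 ± 0.042 (1.32-fold, adjusted p = 1.96e-05) and 0.32 ± 0.042 (1.25-fold, adjusted p = 9.63e-05) by edgeR. No pair of siRNAs differed in EIF4A1 past the threshold. EIF4A1 shares exons with the readthrough gene SENP3-EIF4A1, which was at 8.63 to 11.9 CPM in the group means, and overlaps snoRNA genes, so part of its counts is uncertain.

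Of the 13 tested eIF3 genes, 3 rose with all 3 siRNAs. EIF3B, a core scaffold subunit, had 283, 275 and 283 CPM with scramble. With siRNA #1 it had 404, 388 and 393 CPM, with siRNA #2 344, 341 and 341 CPM, and with siRNA #3 344, 344 and 362 CPM. Its rise was largest with siRNA #1 (log2 fold change 0.50 ± 0.035, 1.41-fold, adjusted p = 1.89e-07), and siRNA #1 stood above siRNA #2 by 0.21 ± 0.035 (adjusted p = 0.0003) and above siRNA #3 by 0.18 ± 0.035 (adjusted p = 0.00106, edgeR).

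EIF3C, another core subunit, had 680.0, 715 and 722 CPM with scramble, 891, 903 and 800 CPM with siRNA #1, 849, 855 and 858 CPM with siRNA #2 and 805, 828 and 814 CPM with siRNA #3. Its log2 fold changes of 0.29, 0.28 and 0.21 (SE 0.047 each) all passed the test. Reads can be split between EIF3C and its near-identical neighbour EIF3CL, which was far lower. EIF3CL had 7.03, 4.57 and 8.56 CPM with scramble, 6.80, 8.16 and 5.27 CPM with siRNA #2 and 6.30, 8.66 and 6.75 CPM with siRNA #3. With siRNA #1 it had 12.1, 11.4 and 9.36 CPM, above all the others (log2 fold change 0.70 ± 0.213, adjusted p = 0.0168 by edgeR). Without siRNA #1 replicate 1 or scramble replicate 2 the EIF3CL call was lost.

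EIF3F, which carries an MPN domain, had 166, 168 and 185 CPM with scramble. It rose to 216, 213 and 194 CPM with siRNA #1, 240, 246 and 229 CPM with siRNA #2 and 211, 232 and 236 CPM with siRNA #3. The log2 fold changes were 0.26 ± 0.058, 0.46 ± 0.058 and 0.39 ± 0.058, and the rise was smaller with siRNA #1 than with siRNA #2 (difference -0.20 ± 0.058, adjusted p = 0.0121 by edgeR).

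Other eIF3 genes were called with siRNA #1 alone. EIF3D, whose product can itself bind the cap, rose from 365 ± 8.13 to 446 ± 19.2 CPM (log2 fold change 0.29 ± 0.042, adjusted p = 0.000109), and EIF3L fell from 502 ± 22.6 to 454 ± 28.3 CPM (-0.15 ± 0.052, adjusted p = 0.0372, edgeR). The EIF3L call was lost in 9 of 21 alternative settings. EIF3A, EIF3E, EIF3G, EIF3H, EIF3I, EIF3J and EIF3M were called with none of the siRNAs, with log2 fold changes between -0.08 and 0.11. With the GC and length trend removed, however, EIF3E, EIF3J and EIF3M were called higher with siRNA #1 (0.17, 0.15 and 0.16). With that trend left in, 5 eIF3 genes were higher and 1 lower with siRNA #1 (45.2% of all genes were called), and 3 were higher and none lower with siRNA #2 (25.8%) and with siRNA #3 (29.4%). The median over the 13 was 0.06, 0.02 and 0.05.

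**Figure D3:**
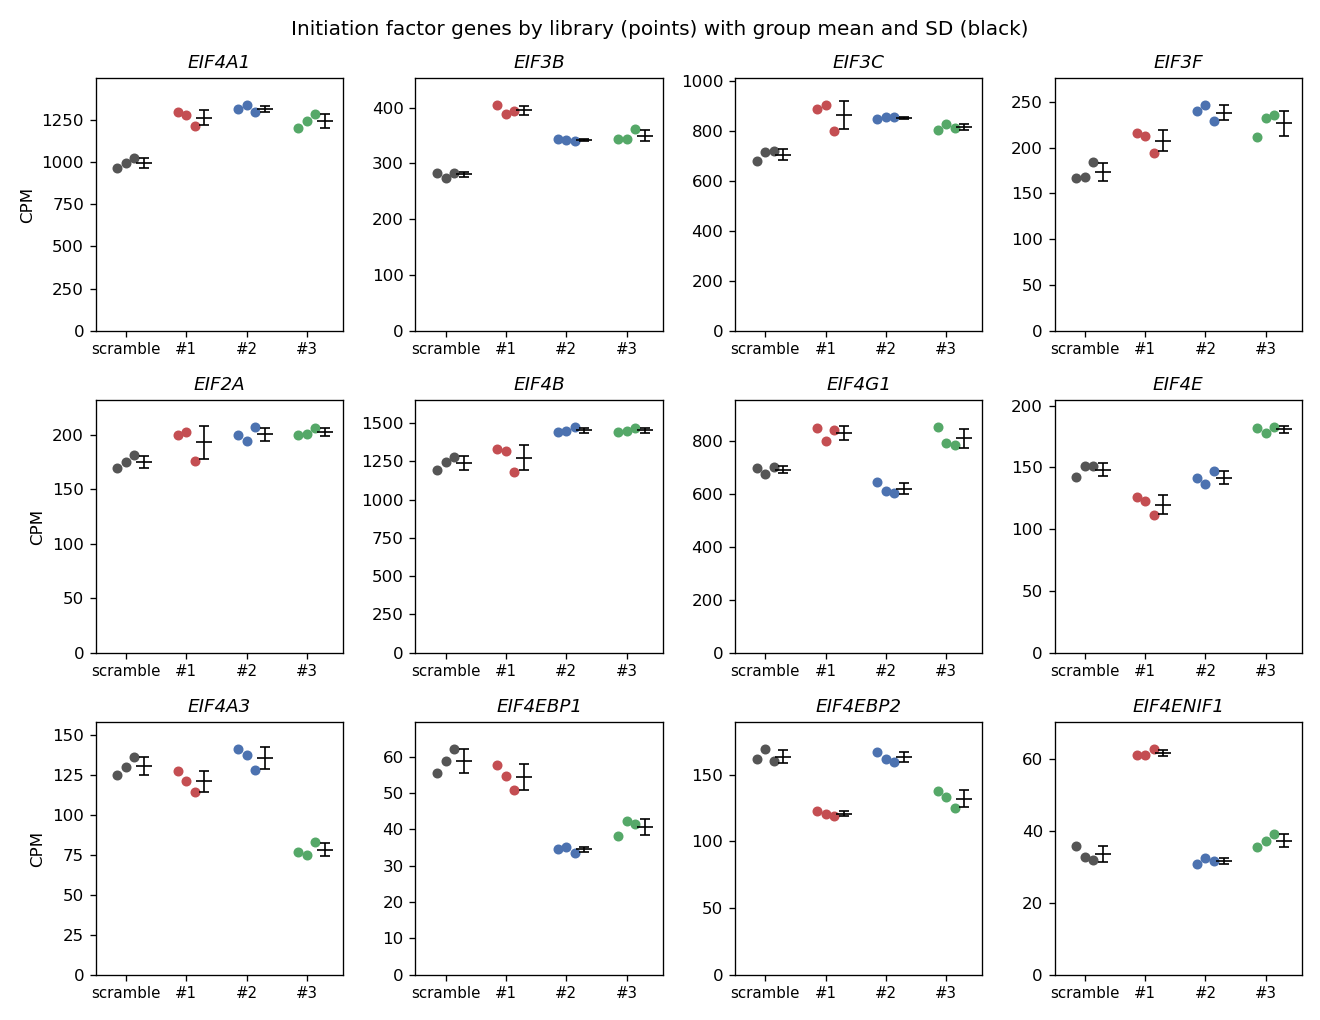
CPM in each of the 12 libraries for 12 initiation factor genes, by group (points), with the group mean and SD in black and each axis starting at 0. The 9 siRNA libraries of EIF4A1, EIF3B, EIF3C and EIF3F lie above the scramble libraries, EIF4A3 is low in the 3 siRNA #3 libraries, and EIF4ENIF1 is high in the 3 siRNA #1 libraries.

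In the cap-binding and unwinding group, 2 of 12 genes were higher and 4 lower with siRNA #1 (background 45.2%), 4 higher and 1 lower with siRNA #2 (25.8%), and 4 higher and 2 lower with siRNA #3 (29.4%). Of the 4 lower with siRNA #1, EIF4E and EIF4E3 were no longer called with the GC and length trend removed. EIF4G1, the main scaffold of eIF4F, had 700, 677 and 701 CPM with scramble. It rose with siRNA #1 to 851, 801 and 841 CPM and with siRNA #3 to 852, 793 and 786 CPM, and fell with siRNA #2 to 645, 612 and 604 CPM. No siRNA group overlapped scramble. The log2 fold changes were 0.26 ± 0.044 (adjusted p = 0.000315), 0.23 ± 0.044 (adjusted p = 0.00194) and -0.16 ± 0.044 (adjusted p = 0.0186, edgeR), and siRNA #1 and siRNA #2 differed by 0.42 ± 0.044 (adjusted p = 5.75e-06). The fall with siRNA #2 was lost without the low-count filter, without siRNA #2 replicate 2 or 3 and without scramble replicate 1 or 3 (adjusted p between 0.0597 and 0.104, edgeR).

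EIF4E had 142, 151 and 151 CPM with scramble, 126, 123 and 111 CPM with siRNA #1, 141, 137 and 147 CPM with siRNA #2 and 182, 178 and 182 CPM with siRNA #3. It fell with siRNA #1 (log2 fold change -0.31 ± 0.048, adjusted p = 0.000189) and rose with siRNA #3 (0.29 ± 0.048, adjusted p = 0.000644), while with siRNA #2 the value was -0.06 ± 0.048 (adjusted p = 0.375, edgeR). The fall with siRNA #1 was lost, at -0.03 (adjusted p = 0.427, edgeR), once that trend was removed.

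Among the eIF4E relatives, EIF4E2, a cap-binding repressor, fell with siRNA #1 (83.6 ± 2.93 CPM with scramble, 72.4 ± 4.18 CPM with the siRNA, log2 fold change -0.21), as did EIF4E3 (-0.23) and the scaffold EIF4G3 (-0.16). EIF4E1B had 0.569, 0.468 and 0.427 CPM with scramble, 0.322, 0.317 and 0.500 CPM with siRNA #1, 0.382, 0.363 and 0.367 CPM with siRNA #2 and 0.161, 0.237 and 0.291 CPM with siRNA #3 (log2 fold change -1.09 ± 0.25, adjusted p = 0.00536 by edgeR), a called difference at a level below 1 CPM.

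EIF4B, which stimulates the helicase, had 1191, 1248 and 1281 CPM with scramble. The siRNA #2 libraries had 1438, 1449 and 1471 CPM and the siRNA #3 libraries 1440.0, 1447 and 1466 CPM, and none of these overlapped scramble. With siRNA #1 the libraries had 1329, 1315 and 1178 CPM, on both sides of the scramble range. The log2 fold change was 0.23 ± 0.048 both with siRNA #2 (adjusted p = 0.0038) and with siRNA #3 (adjusted p = 0.00348), and 0.04 ± 0.048 with siRNA #1 (adjusted p = 0.542, edgeR). EIF4H, a smaller cofactor of the helicase, and EIF4A2 passed the threshold with siRNA #2 alone (0.15 and 0.16), and these calls were lost in 9 and 6 of 21 settings. With the GC and length trend removed, EIF4B and EIF4A2 were also called higher with siRNA #1 (0.10 and 0.23).

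EIF4A3, an eIF4A relative that acts in the exon junction complex laid down by splicing and not in cap-dependent initiation, fell with siRNA #3. It had 125, 131 and 136 CPM with scramble, 127, 122 and 115 CPM with siRNA #1, 141, 138 and 128 CPM with siRNA #2 and 76.8, 75.3 and 83.3 CPM with siRNA #3. The siRNA #3 libraries lay below all others. The log2 fold change was -0.74 ± 0.055 (0.601 of the scramble level, adjusted p = 1.16e-06), and siRNA #2 stood above siRNA #3 by 0.79 ± 0.055 (adjusted p = 2.3e-06, edgeR), the largest difference between those siRNAs among the 49 genes. With siRNA #1 and siRNA #2 the log2 fold changes were -0.11 and 0.06 and did not pass. The 4 partners of EIF4A3 in the exon junction complex were looked up after this value was seen. Of these, MAGOHB fell with siRNA #3 (27.7 against 13.1 CPM, log2 fold change -1.08 ± 0.081) and with siRNA #2 (-0.59 ± 0.08), CASC3 fell with siRNA #3 (-0.33 ± 0.042) and rose with siRNA #1 (0.26 ± 0.042), RBM8A rose with siRNA #2 and siRNA #3 (0.27 and 0.28), and MAGOH was called with none.

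Of the 4 genes for eIF4E-binding proteins outside eIF4F, 1 rose and 1 fell with siRNA #1 (45.2% of all genes were called), 1 fell with siRNA #2 (25.8%), and 1 rose and 2 fell with siRNA #3 (29.4%). EIF4ENIF1 encodes the eIF4E transporter 4E-T, which carries eIF4E into the nucleus and to processing bodies. It had 35.9, 32.8 and 31.7 CPM with scramble and 61.1, 61.1 and 62.6 CPM with siRNA #1, a log2 fold change of 0.88 ± 0.05 (1.84-fold, adjusted p = 3.2e-08 by edgeR). The siRNA #2 libraries had 30.8, 32.5 and 31.6 CPM and the siRNA #3 libraries 35.5, 37.0 and 39.1 CPM, and siRNA #1 stood above them by 0.96 ± 0.05 and 0.73 ± 0.05. The smaller rise with siRNA #3 (0.15 ± 0.05, adjusted p = 0.0383) was lost in 8 of 21 alternative settings, among them without siRNA #3 replicate 2 or 3, siRNA #2 replicate 3, or scramble replicate 2 or 3. EIF4ENIF1 overlaps SFI1 on the opposite strand, and whether reads were assigned by strand is not given in the sources used here.

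EIF4EBP1 (4E-BP1), the best known mTOR-controlled eIF4E inhibitor, had 55.6, 58.8 and 62.0 CPM with scramble. It fell with siRNA #2 to 34.6, 35.2 and 33.6 CPM (log2 fold change -0.77 ± 0.057, 0.587 of the scramble level, adjusted p = 1.18e-06) and with siRNA #3 to 38.2, 42.3 and 41.5 CPM (-0.53 ± 0.057, 0.691 of the scramble level, adjusted p = 1.95e-05 by edgeR). With siRNA #1 its 57.9, 54.8 and 50.8 CPM ran into the scramble range, and the log2 fold change of -0.11 ± 0.057 did not pass (adjusted p = 0.134). It was called lower with siRNA #1 at -0.18 (adjusted p = 0.00667, edgeR) with the GC and length trend removed.

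EIF4EBP2 (4E-BP2) showed another pattern. It had 161, 169 and 160.0 CPM with scramble and 167, 162 and 159.6 CPM with siRNA #2, but 123, 121 and 119 CPM with siRNA #1 and 138, 133 and 125 CPM with siRNA #3. The log2 fold changes were -0.44 ± 0.041 with siRNA #1 (adjusted p = 2.26e-06), -0.31 ± 0.041 with siRNA #3 (adjusted p = 0.000106) and 0.00 ± 0.041 with siRNA #2 (adjusted p = 0.958, edgeR). In the main fit EIF4EBP1 was thus lower with siRNA #2, EIF4EBP2 with siRNA #1, and both with siRNA #3. With the GC and length trend removed, both were lower with siRNA #1 as well. EIF4EBP3, at 1.05 ± 0.0559 CPM with scramble, was called with none of the siRNAs.

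In the start codon group, EIF1, which keeps the scanning ribosome open until a start codon is met, fell with siRNA #1 alone. It had 535, 536 and 570 CPM with scramble, 439, 438 and 402 CPM with siRNA #1, 569, 567 and 555 CPM with siRNA #2, and 519, 565 and 569 CPM with siRNA #3. The log2 fold change with siRNA #1 was -0.36 ± 0.049 (0.779 of the scramble level, adjusted p = 5.75e-05), against 0.04 and 0.01 with the other two. Its paralog EIF1B had 78.6, 81.2 and 83.8 CPM with scramble and rose with siRNA #2 to 89.5, 90.6 and 97.6 CPM (0.19 ± 0.045, adjusted p = 0.00832) and with siRNA #3 to 95.1, 93.9 and 96.7 CPM (0.23 ± 0.045, adjusted p = 0.00211, edgeR). With siRNA #1 EIF1B had 78.1, 79.2 and 72.4 CPM. EIF1AX, which helps eIF1 in scanning, was called with siRNA #3 (0.16), a call lost in 6 of 21 settings, and EIF1AD with none. With the GC and length trend removed, EIF1AX and EIF1B were called higher with siRNA #1 (0.24 and 0.09).

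The ternary complex genes moved apart as well. EIF2A, an initiator tRNA-binding protein that is no subunit of eIF2, had 170, 175 and 181 CPM with scramble, 200.0, 203 and 175 CPM with siRNA #1, 199.5, 194 and 207 CPM with siRNA #2 and 199, 201 and 206 CPM with siRNA #3. Its log2 fold changes of 0.14 ± 0.052 (adjusted p = 0.0443), 0.19 ± 0.052 (adjusted p = 0.0156) and 0.21 ± 0.052 (adjusted p = 0.00933, edgeR) all passed, although the third siRNA #1 library lay inside the scramble range. The call with siRNA #1 was lost in 12 of 21 alternative settings. The genes for the eIF2 beta and gamma subunits, EIF2S2 and EIF2S3, fell with siRNA #1 (-0.14 and -0.18), and EIF2S2 rose with siRNA #2 (0.14) and siRNA #3 (0.25). Both falls with siRNA #1 were lost when the GC and length trend was removed, and the rise of EIF2S2 with siRNA #2 in 11 of 21 settings. EIF2S1, for the alpha subunit that stress kinases phosphorylate, was called with none (0.09, 0.07 and 0.13), but was higher with siRNA #1 without the trend (0.25, adjusted p = 0.00165 by edgeR). EIF2D, an alternative initiator tRNA factor, rose with siRNA #2 (0.13), a call lost in 4 of 21 settings.

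Of the eIF2B genes, EIF2B5, for the catalytic epsilon subunit, rose with siRNA #1 from 70.4 ± 3.21 to 83.8 ± 2.05 CPM (log2 fold change 0.25 ± 0.043, adjusted p = 0.000366), and EIF2B2, for the beta subunit, rose with siRNA #3 from 35.7 ± 0.725 to 43.99 ± 0.594 CPM (0.30 ± 0.04, adjusted p = 0.000109, edgeR). EIF2B4 fell with siRNA #2 (-0.17) and siRNA #3 (-0.13), the latter call being lost in 6 of 21 settings. EIF2B1 rose with siRNA #1 (0.14) and EIF2B3 with siRNA #3 (0.22), and EIF2B3 was also called with siRNA #1 without the GC and length trend (0.17). EIF2B2 was also called with siRNA #2 (0.12), a call lost in 8 of 21 settings. No eIF2B gene passed the test with all 3 siRNAs.

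For the late steps, EIF5, the GTPase-activating protein of eIF2, fell with siRNA #2 from 279 ± 13.9 to 228 ± 11.3 CPM (-0.29 ± 0.054, adjusted p = 0.0017), with 0.03 and -0.03 for the other siRNAs. EIF5B, the GTPase of subunit joining, rose with siRNA #2 (0.22) and siRNA #3 (0.27) and fell with siRNA #1 (-0.16), a fall that was lost in 8 of 21 settings. EIF6, which keeps the large subunit from joining early, rose with siRNA #1 from 33.6 ± 1.08 to 37.9 ± 1.66 CPM (0.17 ± 0.043, adjusted p = 0.00591, edgeR). EIF5A2, a hypusine-bearing factor of elongation, had 26.1, 29.6 and 24.9 CPM with scramble, 25.7, 23.6 and 21.0 CPM with siRNA #1, 19.4, 19.4 and 19.9 CPM with siRNA #2 and 31.8, 31.5 and 30.8 CPM with siRNA #3. It fell with siRNA #2 (-0.46 ± 0.072, 0.726 of the scramble level, adjusted p = 0.000473 by edgeR). Its fall with siRNA #1 (-0.20) and rise with siRNA #3 (0.22) were lost in 11 and 7 of 21 alternative settings.

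The siRNAs were also compared with each other. Of the 49 genes, 29 were called between siRNA #1 and siRNA #2 (46.7% of all genes), 29 between siRNA #1 and siRNA #3 (48.6%) and 11 between siRNA #2 and siRNA #3 (15.6%). A gene stood at a level of its own with a siRNA when it differed past the threshold from scramble and from each other siRNA, lying on the same side of all. With siRNA #1 there were 15 such genes (27.6% of all genes), 5 above (EIF3B, EIF3D, EIF3CL, EIF2B5 and EIF4ENIF1) and 10 below (EIF1, EIF2S2, EIF2S3, EIF3L, EIF4E, EIF4E2, EIF4E3, EIF4EBP2, EIF4G3 and EIF5B). With siRNA #2 there were 4, all below (EIF4EBP1, EIF4G1, EIF5 and EIF5A2, beside 3.49% of all genes), and with siRNA #3 there were 4 (5.17% of all genes), EIF2B2, EIF4E and EIF5A2 above and EIF4A3 below. These sets changed when the GC and length trend was removed, a fit for which the shares of all genes at a level of their own were not computed. With siRNA #1 there were then 12 above (EIF1AX, EIF2A, EIF2B1, EIF2B5, EIF2S1, EIF3B, EIF3D, EIF3E, EIF3J, EIF3M, EIF4A2 and EIF4ENIF1) and 4 below (EIF1, EIF3L, EIF4E2 and EIF4G3). With siRNA #2 EIF2D was then above and EIF4E joined the 4 below, and with siRNA #3 EIF2B2 and EIF4E were above and EIF4A2 and EIF4A3 below. Of the genes called between siRNA #1 and siRNA #2, 10 were higher and 19 lower with siRNA #1, against 20 and 15 without the trend and 13 and 15 with upper quartile scaling. All genes had 5220 higher and 5057 lower, against 5643 and 4543 without the trend and 6217 and 4431 with upper quartile scaling. Between siRNA #1 and siRNA #3 the split was 11 higher and 18 lower, against 18 and 12 without the trend and 15 and 14 with upper quartile scaling. All genes had 5227 and 5464 there, against 5870 and 4753 without the trend and 6237 and 4679 with upper quartile scaling.

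Ratios between related genes within a library do not depend on the scaling between libraries. They can still move with the trend of a library with GC content and length, and are given with that trend left in. They were compared between the 9 siRNA and the 3 scramble libraries with an exact two-sided permutation test, for which 0.00909 is the smallest p possible, and adjusted over 11 ratios. The test takes the 9 siRNA libraries as separate units, although they are 3 groups of 3 libraries. Its p therefore does not allow for differences between the siRNAs. EIF4A2/EIF4A1 and EIF4A3/EIF4A1 also share EIF4A1, so they are not independent. The EIF4A2/EIF4A1 ratio changed by -0.30 on the log2 scale (adjusted p = 0.025, exact permutation test), from 0.677 with scramble to 0.552, 0.570 and 0.526 with siRNA #1, #2 and #3. EIF4A3/EIF4A1 changed by -0.62 (adjusted p = 0.025, exact permutation test), with its lowest level with siRNA #3. EIF4H/EIF4B changed by -0.09 and EIF1B/EIF1 by 0.21 (adjusted p = 0.025 each, exact permutation test). In each of these 4 ratios all 9 siRNA libraries lay on the same side of scramble, although for EIF4H/EIF4B the nearest values were -1.21 in either group on the log2 scale. The log2 EIF1B/EIF1 ratio was -2.75 with scramble, -2.48 with siRNA #1, where EIF1 fell, and -2.61 and -2.53 with siRNA #2 and #3, where EIF1B rose.

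The other 7 ratios gave adjusted p between 0.400 and 0.782 (exact permutation test), and in several of them the siRNAs lay on both sides of scramble. EIF4EBP1/EIF4E was 0.397 with scramble and 0.244 with siRNA #2, and its log2 values were -1.33 ± 0.044 with scramble, -1.14 ± 0.023 with siRNA #1, -2.04 with siRNA #2 and -2.15 with siRNA #3. EIF4G2/EIF4G1, which sets a scaffold without an eIF4E site against the main one, had log2 values of 0.39 with scramble, 0.08 with siRNA #1, 0.56 with siRNA #2 and 0.22 with siRNA #3. By this exact test no single siRNA could pass, since 3 against 3 libraries cannot give a p below 0.1.

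**Figure D4:**
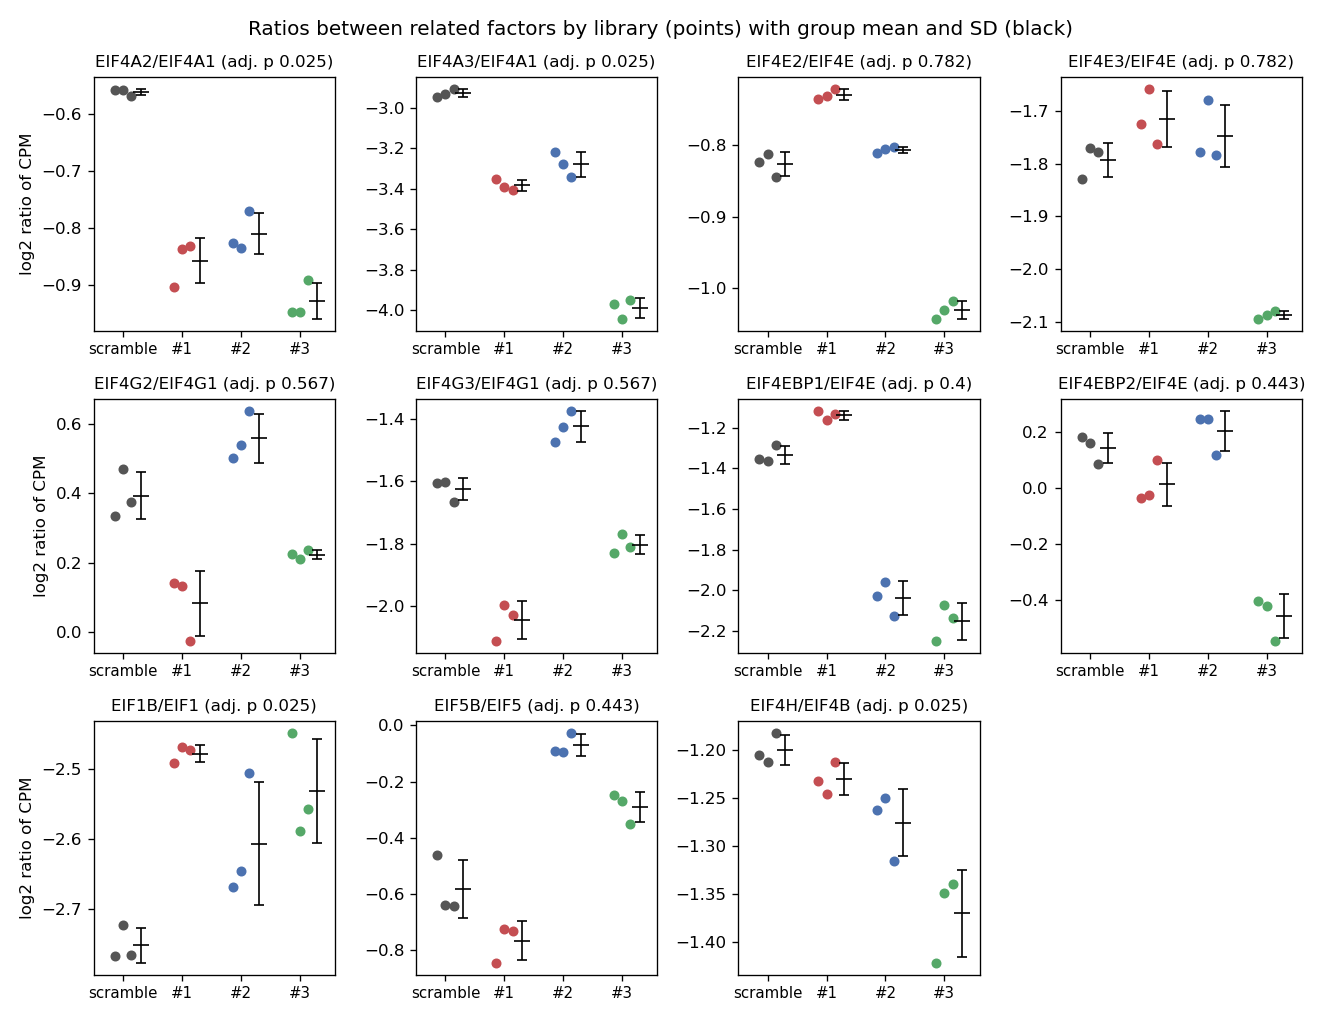
Log2 ratio of CPM between 11 pairs of related genes in each of the 12 libraries (points) with the group mean and SD in black, and the adjusted p of the exact permutation test of the 9 siRNA against the 3 scramble libraries in each title. The axes do not start at 0, and in EIF4A2/EIF4A1 all 9 siRNA libraries lie below the scramble value of -0.56.

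The GC content of the canonical transcripts ran from 33.9% (EIF5A2) to 62.9% (EIF4EBP1) over the 49 genes, with a median of 46.3%. Its correlation with the change was positive after siRNA #1, and negative but weaker after the other siRNAs. Across the 49 genes Pearson's r between GC content and log2 fold change was 0.36 with siRNA #1 (Spearman's rho 0.36), -0.19 with siRNA #2 (rho -0.10) and -0.31 with siRNA #3 (rho -0.17), a description across genes that share all libraries. Members that rose with siRNA #1 had a median GC content of 51.8% and those that fell 44.4%, while with siRNA #3 the medians were 44.6% and 54.1%. With the trend of each library with GC content and length removed, 17 of the 23 calls with siRNA #1 were kept, and EIF2S2, EIF2S3, EIF4E, EIF4E3, EIF5A2 and EIF5B were no longer called. Another 10 genes were called only then with siRNA #1, EIF1AX, EIF1B, EIF2B3, EIF2S1, EIF3E, EIF3J, EIF3M, EIF4A2 and EIF4B higher and EIF4EBP1 lower. Of the 18 calls with siRNA #2, 17 were kept, and of the 21 with siRNA #3, 19. Then 9 genes had calls on the same side with each siRNA, with EIF1B, EIF4B and EIF6 added to the 5 higher ones and EIF4EBP1 as the lower one. More of all genes were called in that fit too, 10109, 6320 and 7099 with siRNA #1, #2 and #3 against 9941, 5673 and 6474. The share of all genes with calls on the same side in all 3 comparisons was not computed for it. The part of base composition in these changes was not tested further.

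**Figure D5:**
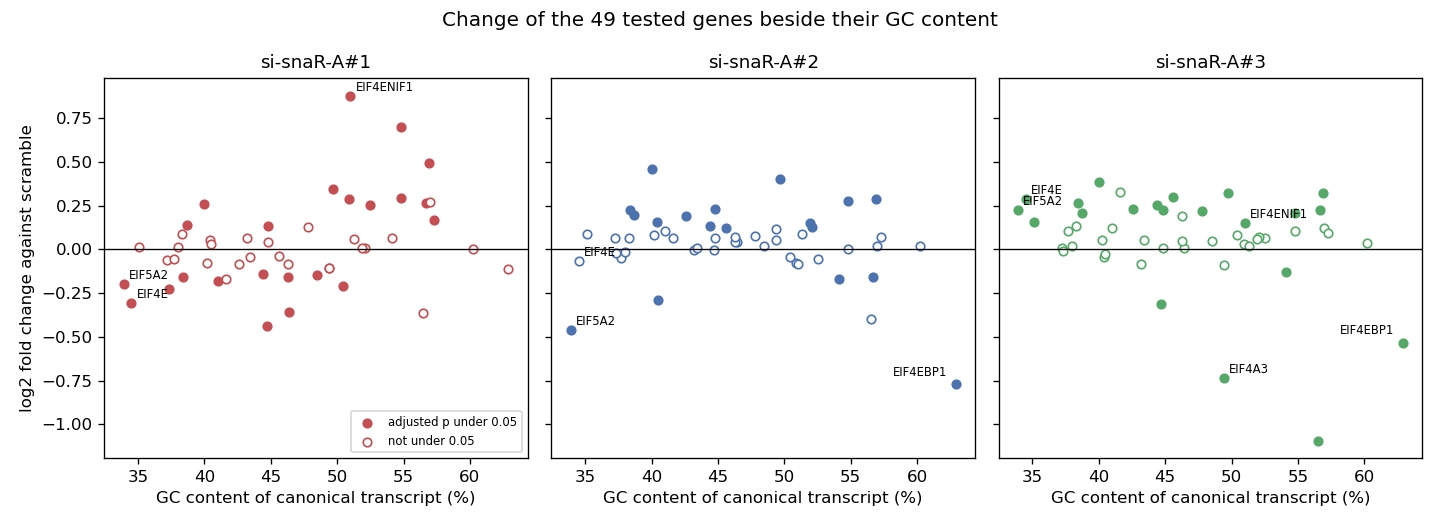
Log2 fold change against scramble of each of the 49 tested genes beside the GC content of its canonical transcript in percent, for siRNA #1, #2 and #3, with filled points for genes called at an adjusted p under 0.05. EIF4E and EIF5A2, at the low GC end, lie below 0 with siRNA #1 and above 0 with siRNA #3.

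Other genes of the initiation pathway, 27 tested of a list of 29, were called for 20 genes with siRNA #1 (7 higher, 13 lower, beside 45.2% of all genes), 9 with siRNA #2 (5 higher, 4 lower, beside 25.8%) and 17 with siRNA #3 (12 higher, 5 lower, beside 29.4%). DENR, a partner of MCTS1 in reinitiation, rose with all 3 siRNAs, from 134 CPM to 156, 194 and 198 CPM (log2 fold changes 0.22, 0.53 and 0.56). RPS6KB1, the S6 kinase downstream of mTOR, fell with all 3, from 128 CPM to 89.2, 113 and 113 CPM (-0.52, -0.19 and -0.18). PABPC1, the poly(A)-binding protein that joins eIF4G1, fell with siRNA #1 from 1432 to 645 CPM (-1.15 ± 0.047, adjusted p = 2.77e-09 by edgeR) and was at 1469 and 1472 CPM with the others. Of the elongation and termination factors, 8 tested of 9, 6 were called with siRNA #1 (2 higher, 4 lower, beside 45.2%), 1 with siRNA #2 (beside 25.8%) and 3 with siRNA #3 (beside 29.4%), these last 4 calls all higher, and GSPT1, the GTPase of termination, rose with each siRNA (0.20, 0.19 and 0.33). The termination factor ETF1 rose with siRNA #1 (0.29) and siRNA #3 (0.39).

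Exons of 26 of the 50 genes overlap those of another listed gene, 8 on the same strand and 23 on the opposite strand, and counts there can be shared. EIF3B, EIF3C, EIF3D, EIF3F, EIF4A3, EIF4G1, EIF4EBP1, EIF4EBP2, EIF1, EIF1B, EIF5 and EIF5A2 have no such overlap. Among the overlapping partners are SERP1 for EIF2A, TBCAP3 for EIF4E, TNS2-AS1 for EIF4B, REV1 for EIF5B, GPR27 for EIF4E3 and ANKRD54 for EIF3L. EIF2S3 has the near-identical copy EIF2S3B. The table held 72 pseudogenes named after these genes, the highest of them at a mean of 0.346 CPM.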

How the data were processed

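RNA was rRNA depleted and poly(A)+ enriched before stranded library preparation. The deposited values are estimated counts per gene made by the authors, and the submitters' processing notes name Trim Galore, Salmon and the build hg38. The use of strand in counting is not given in the sources used here. Of the values above 0, 0% were exactly whole (tolerance 0), so estimated counts were rounded before testing, and 0 columns were left unused. GENCODE release 44 gave gene types, positions and canonical transcripts, and RefSeq promoters.

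Groups came from the labels, with 3 biological replicates each. Genes passing filterByExpr (21999) were scaled by TMM and fitted together over all 12 libraries with the edgeR 4.0.16 quasi-likelihood test in R 4.3.3, adjusted by Benjamini-Hochberg at 0.05. CPM values use TMM library sizes, and errors are SD with n = 3 for CPM and SE for log2 fold changes. Ratios were tested by exact permutation in SciPy 1.17.1, and figures drawn in matplotlib 3.10.9. The code was tested on simulated data. Alternatives included DESeq2 1.42.0, other scalings and filters, a replicate block, removal of the trend with GC content and length, and leaving out each library.

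Members and lists were chosen with earlier results of these data known. Genes given library by library had the largest rises or falls in the mean (up to 6 each) or with a siRNA (up to 2 each), the 2 largest differences between siRNAs, or were in a ratio and called in the mean, and EIF4E was added after its values were seen. Of other lists, the 3 largest called mean changes are named. Same-numbered libraries had deviations correlated between -0.189 and 0.173 and were not treated as pairs.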

Additional observations from a re-analysis of the deposited data

How the results depend on the processing

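Without scramble replicate 1, genes called with siRNA #2 went from 18 to 11, and all genes called from 5673 of 21999 to 4459 of 22434. Over all fits leaving out 1 library the counts called were 17 to 22 with siRNA #1, 11 to 20 with siRNA #2, 17 to 22 with siRNA #3, 11 to 22 in the mean, 26 to 30 for siRNA #1 against siRNA #2, 24 to 30 for siRNA #1 against siRNA #3, 9 to 12 for siRNA #2 against siRNA #3, and 4 to 5 in the same direction with all 3. The ratio differences ran from -0.315 to -0.293 for EIF4A2/EIF4A1, -0.663 to -0.56 for EIF4A3/EIF4A1, 0.202 to 0.23 for EIF1B/EIF1 and -0.103 to -0.077 for EIF4H/EIF4B. Without a scramble library their adjusted p was 0.1 (exact permutation test). With 2 scramble libraries the smallest p possible is larger than with 3. The replicate block gave 21, 16 and 21 calls with siRNA #1, #2 and #3, 15 in the mean and 4 in the same direction with all 3. All genes called with that block were 9653, 5336 and 6162 with siRNA #1, #2 and #3, and 6801 in the mean. By their deviations, 3 of 12 libraries lay closest to their own replicate number. With GC content and length trends removed, 17 genes were called between siRNA #2 and siRNA #3, where 4192 of all 21999 genes were. In the same direction with all 3 there were 9, without a share of all genes for that fit. Directions reversed under that setting alone. Against scramble, siRNA #1 then gave log2 fold changes of 0.153 for EIF3J, 0.165 for EIF3E, 0.09 for EIF1B and 0.022 for EIF5A2. Against siRNA #2 it gave 0.258 for EIF3J, 0.151 for EIF3E, 0.162 for EIF2A, 0.023 for EIF3H, 0.092 for EIF4E, 0.106 for EIF4A2 and 0.217 for EIF1AX. Against siRNA #3 it gave 0.116 for EIF3J, 0.224 for EIF3E, 0.194 for EIF2S1, 0.165 for EIF2A, 0.07 for EIF3H, 0.225 for EIF3M and 0.158 for EIF1AX. The cause of these shifts was not tested. Under all alternatives in which the gene was tested, 14 of 23 calls with siRNA #1, 11 of 18 with siRNA #2 and 17 of 21 with siRNA #3 were kept. There were 21 alternatives, but 20 for EIF4E1B with siRNA #3, which was kept, and 20 for EIF3CL with siRNA #1, which was not.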

Other observations

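RNAs transcribed beside initiation factor genes were looked up after the values of those genes were seen. EIF5-DT, a divergent transcript at EIF5, was at 0.404 ± 0.0038 CPM with scramble and 0.967 ± 0.125 CPM with siRNA #1 (log2 fold change 1.26 ± 0.165, adjusted p = 4.24e-05), and fell with siRNA #2 (-0.55 ± 0.172) and siRNA #3 (-0.56 ± 0.173) by the edgeR test. EIF1B-AS1, antisense to EIF1B, fell with siRNA #1 from 9.78 ± 0.936 to 7.10 ± 0.275 CPM (-0.46 ± 0.102, adjusted p = 0.00241, edgeR). EIF3J-DT and EIF2B5-DT were not called with any siRNA.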
